A study of Mus musculus with 16 samples.

Results

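The genes described here are 5 genes of the mouse ISG15 conjugation pathway, Isg15, Uba7, Ube2l6, Herc6 and Usp18, out of 24485 gene IDs measured in every library. They were chosen by their pathway and with the exp-minus-ctl FPKM differences of these same libraries known, so those differences are given as values with their errors and without a test. All 5 were present in all 16 libraries, and all 5 passed the filter of a mean of 1 FPKM. FPKM is a fragment count scaled by gene length and by sequencing depth, so levels are per length and can be compared between genes.

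The libraries came from immortalized mouse embryonic fibroblasts (iMEFs), cultured cells that divide without limit, in 2 lines. The exp line was R26M2rtTA/+;TetOcre;Sdhcfl/fl, with both copies of Sdhc floxed, and the ctl line was R26M2rtTA/+;TetOcre;Sdhcfl/wt, with 1 floxed and 1 wild-type copy. Both lines thus carried the doxycycline-dependent transactivator and the Cre transgene it drives, and both received doxycycline at 1 µg/mL. RNA was sequenced on days 0, 5, 9, 12, 16 and 20, with 3 replicates of each line on day 16 and 1 library of each line on every other day. With 1 line per genotype, line and genotype cannot be told apart.

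ISG15 is a small protein with a ubiquitin-like fold that is joined to lysines of other proteins, a modification called ISGylation. The E1 enzyme UBA7 activates it, the E2 enzyme UBE2L6 carries it, an E3 ligase of the HERC family, HERC6 in the mouse, transfers it to the target, and the protease USP18 removes it. Type I interferon induces these genes through the transcription factor complex ISGF3, which includes STAT2 and IRF9 and binds the interferon-stimulated response element (ISRE), and USP18 also restrains signalling at the interferon receptor.

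The promoter sequences are shown as a description, and no link between them and how far each gene moved was tested. RefSeq windows of 300 bases, from 250 before to 50 after the gene start, were found for 4 of the 5 genes (table build GRCm38.p6), and each matched mm9 exactly at 1 place. The 250 bases before the start are printed 5′ to 3′ on the gene's strand, with capitals for the ISRE core GAAA-NN-GAAA or the shorter motif AANNGAAA, each searched on both strands. The shorter motif was added after the sequences had been seen, and the motifs overlap.

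Isg15, chr4:155574928-155575177, minus strand: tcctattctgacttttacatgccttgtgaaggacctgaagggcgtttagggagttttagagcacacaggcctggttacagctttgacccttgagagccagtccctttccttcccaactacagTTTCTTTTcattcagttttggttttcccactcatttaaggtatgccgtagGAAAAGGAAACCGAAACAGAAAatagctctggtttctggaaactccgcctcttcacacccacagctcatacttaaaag
Uba7, chr9:107877648-107877897, plus strand: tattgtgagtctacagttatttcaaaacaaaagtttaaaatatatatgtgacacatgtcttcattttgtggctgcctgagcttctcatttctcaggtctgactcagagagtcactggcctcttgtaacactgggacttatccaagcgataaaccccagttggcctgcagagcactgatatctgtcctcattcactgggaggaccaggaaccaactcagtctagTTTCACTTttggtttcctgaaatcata
Herc6, chr6:57530736-57530985, plus strand: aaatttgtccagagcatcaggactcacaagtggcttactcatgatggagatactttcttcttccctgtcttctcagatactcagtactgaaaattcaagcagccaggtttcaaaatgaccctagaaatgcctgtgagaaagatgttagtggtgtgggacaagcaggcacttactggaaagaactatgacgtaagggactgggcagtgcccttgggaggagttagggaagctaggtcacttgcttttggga

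The Isg15 window held 3 overlapping copies of GAAA-NN-GAAA, beginning 78, 72 and 66 bases before the start, in the tract GAAAAGGAAACCGAAACAGAAA. Among 32851 windows of the same length in the table, 3.44% held at least 1 copy and 5 windows (0.0152%) held 3 or more. The Uba7 window held no copy of the longer motif and 1 copy of AANNGAAA on the other strand, which 23.9% of all windows also held. Neither motif was found in the Herc6 window or in that of Ube2l6 (chr2:84638735-84639034), which had the highest GC content of the 4 windows, 59.67%. A match describes letters only, and these windows do not show where a factor binds. Usp18 is not shown.

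The libraries held 18121520 to 42486438 reads in genes, as recovered from the spacing of the FPKM values. Sdhc itself had 87.8 FPKM in exp and 90.5 FPKM in ctl at day 0. It was lower in both lines by day 9, at 43.8 FPKM in exp and 47.6 FPKM in ctl. On day 16 it had 36.9, 32.8 and 26.5 FPKM in the 3 exp libraries, against 50.5, 50.1 and 47.5 FPKM in the ctl libraries. Its exp-over-ctl ratio was 0.93 on day 5, 0.92 on day 9, 0.84 on day 12 and 0.78 on day 20. The floxed stretch of Sdhc is not named in the labels, so this gene-level value keeps reads from the undeleted part. All 9 fibroblast markers reached 1 FPKM in at least 1 library of each line, though the medians in ctl were under it for Thy1 (0.702 FPKM) and Lum (0.964 FPKM). Their levels differed between the lines, with median FPKM of 32.3 in exp and 3.34 in ctl for Dcn, 639.7 in exp and 90.0 in ctl for Col1a2, and 19.1 in exp and 50.9 in ctl for Pdgfra. The part of these differences in the values of the ISG15 conjugation genes was not tested. The leukocyte markers Ptprc, Adgre1 and Itgam were listed at 0 in every exp library, but 2 of the 7 leukocyte markers reached 1 FPKM in each line. Of these, Cd68 had 2.59 to 5.91 FPKM in exp and 4.65 to 6.32 FPKM in ctl. Cd14 had 2.71 to 3.29 FPKM in exp and 3.76 to 5.38 FPKM in ctl. The 7 leukocyte markers summed to 5.35 to 9.25 FPKM in exp and 9.82 to 10.4 FPKM in ctl. None of 4 endothelial markers reached 1 FPKM. Of 4 epithelial markers, Krt14 stood apart, with 5.71 to 106.9 FPKM in exp and at most 0.217 FPKM in ctl. Replicates 2 and 3 of day 16 were closer to each other (r over 12559 genes 0.9954 in exp, 0.9973 in ctl) than to replicate 1 (0.9521 and 0.9541 in exp, 0.9787 and 0.9807 in ctl), so values are given by replicate.

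Across the days, Isg15, Usp18, Uba7 and Ube2l6 were higher in exp than in ctl in every library pair from day 9 on. Herc6 was lower in exp in every pair from day 5 on. Its exp-over-ctl ratio was 0.70 on day 5, 0.74 on day 9, 0.85 on day 12, 0.94 to 0.96 on day 16 and 0.77 on day 20. The share of all genes with this Herc6 pattern was not counted. On day 16 the ratio of mean FPKM, exp over ctl, was 6.51 for Usp18, 6.31 for Isg15, 1.81 for Uba7, 1.65 for Ube2l6 and 0.954 for Herc6. The modifier and the protease thus had ratios over 6, the E1 and the E2 under 2, and the E3 about 1. In these bulk samples, a change in the number of cells that express a gene and a change in RNA per cell cannot be told apart.

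**Figure D1:**
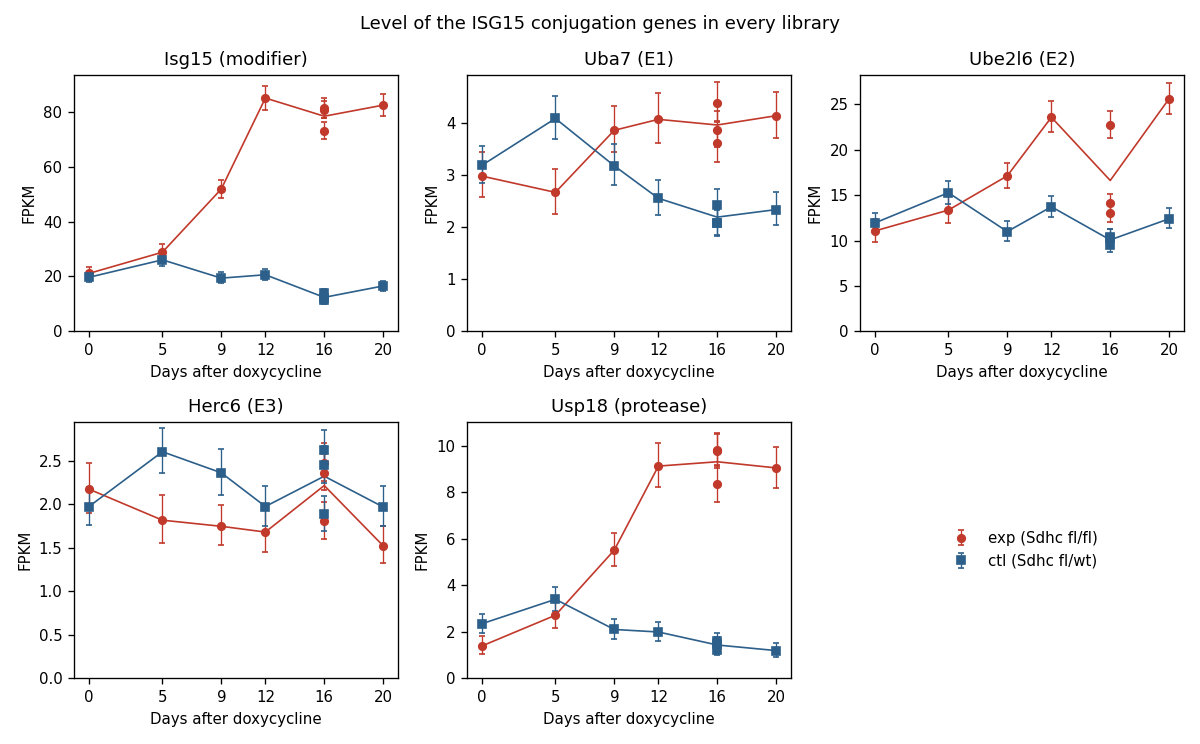
Level of each ISG15 conjugation gene in FPKM (linear axis from 0) against days after doxycycline; red circles are exp (Sdhc fl/fl) libraries, blue squares ctl (Sdhc fl/wt) libraries, bars the exact 95% Poisson interval of the recovered reads (counting error only), and lines join the day means. Isg15 and Usp18 separated between the lines from day 9, with Isg15 at 73.1 to 81.2 FPKM in exp and 11.3 to 13.9 FPKM in ctl on day 16, while the Herc6 ranges overlapped.

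Isg15 (chr4:155573533-155574927 in mm9, minus strand), the modifier, was the most abundant of the 5 transcripts in all 16 libraries. In exp it had 21.1, 28.8, 51.8 and 84.9 FPKM on days 0, 5, 9 and 12, then 81.2, 73.1 and 80.6 FPKM in the 3 replicates of day 16 and 82.3 FPKM on day 20. In ctl it had 19.7, 26.1, 19.4 and 20.6 FPKM on days 0, 5, 9 and 12, then 13.9, 12.0 and 11.3 FPKM on day 16 and 16.6 FPKM on day 20. The lines were near each other until day 5, exp then climbed to a plateau reached by day 12, and no ctl library exceeded its own day 5 value. The day 16 mean was 78.3 ± 4.53 FPKM in exp and 12.4 ± 1.32 FPKM in ctl (SD, n = 3 each), a difference of 2.57 ± 0.09 (SE) on the log2(FPKM + 1) scale. The exp-over-ctl FPKM ratio was 1.07 on day 0, 1.11 on day 5, 2.67 on day 9, 4.12 on day 12, 5.86 to 7.13 in the day 16 pairs and 4.97 on day 20. Among genes with a mean of at least 1 FPKM, Isg15 on day 16 lay above 93.7% of genes in exp and above 48.6% in ctl.

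Uba7 (chr9:107877895-107886387, plus strand), the activating enzyme, moved far less. In exp it had 2.98, 2.67, 3.86 and 4.07 FPKM on days 0, 5, 9 and 12, then 3.62, 4.40 and 3.87 FPKM on day 16 and 4.14 FPKM on day 20. In ctl it had 3.19, 4.09, 3.18 and 2.56 FPKM on days 0, 5, 9 and 12, then 2.42, 2.09 and 2.07 FPKM on day 16 and 2.34 FPKM on day 20. The day 16 groups did not overlap, yet the ctl value of day 5 lay above 3 of the 4 exp means seen on days 9, 12, 16 and 20. The day 16 mean was 3.96 ± 0.394 FPKM in exp and 2.19 ± 0.195 FPKM in ctl (SD, n = 3 each), a log2 difference of 0.63 ± 0.10. Relative to day 0, the day 16 mean was 1.33 times as high in exp and 0.688 times as high in ctl, so the distance between the lines came from movement in both.

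Ube2l6 (chr2:84638985-84650492, plus strand), the conjugating enzyme, was the second most abundant of the 5 transcripts in all 16 libraries. In exp it had 11.1, 13.4, 17.1 and 23.6 FPKM on days 0, 5, 9 and 12, then 22.8, 14.1 and 13.0 FPKM on day 16 and 25.6 FPKM on day 20. In ctl it had 12.0, 15.3, 11.0 and 13.7 FPKM on days 0, 5, 9 and 12, then 10.3, 9.57 and 10.4 FPKM on day 16 and 12.4 FPKM on day 20. All 3 exp values of day 16 lay above all 3 ctl values, but replicates 2 and 3 lay well below replicate 1 and below the exp libraries of days 12 and 20. The day 16 mean was 16.6 ± 5.35 FPKM in exp and 10.1 ± 0.447 FPKM in ctl (SD, n = 3 each), a log2 difference of 0.63 ± 0.20. Replicate 1 alone gave a log2 difference of 1.07, the mean of replicates 2 and 3 gave 0.41, and leaving out exp replicate 1 left 0.39. Krt14 moved the same way among the day 16 exp libraries, with 106.9, 5.71 and 9.11 FPKM in replicates 1, 2 and 3, and it had 82.9 FPKM on day 20. From day 0 to day 9 in exp, Krt14 fell from 40.8 to 14.7 FPKM while Ube2l6 rose. The part of Krt14 in the Ube2l6 values was not tested.

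Herc6 (chr6:57530986-57615130, plus strand), the ligase, was the exception. In exp it had 2.18, 1.82, 1.75 and 1.68 FPKM on days 0, 5, 9 and 12, then 1.81, 2.48 and 2.36 FPKM on day 16 and 1.53 FPKM on day 20. In ctl it had 1.98, 2.61, 2.36 and 1.98 FPKM on days 0, 5, 9 and 12, then 1.89, 2.63 and 2.46 FPKM on day 16 and 1.97 FPKM on day 20. The groups overlapped on day 16, and in both lines replicates 2 and 3 were higher than replicate 1. The day 16 mean was 2.22 ± 0.358 FPKM in exp and 2.32 ± 0.388 FPKM in ctl (SD, n = 3 each), a log2 difference of -0.05 ± 0.14. Its values rested on 174 to 522 reads per exp library and 293 to 590 reads per ctl library, so counting error is a small part of each value.

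Usp18 (chr6:121195924-121220934, plus strand), the protease, was as far apart between the lines as the modifier that it removes. In exp it had 1.39, 2.71, 5.51 and 9.13 FPKM on days 0, 5, 9 and 12, then 8.36, 9.76 and 9.82 FPKM on day 16 and 9.05 FPKM on day 20. In ctl it had 2.34, 3.40, 2.10 and 1.99 FPKM on days 0, 5, 9 and 12, then 1.46, 1.22 and 1.61 FPKM on day 16 and 1.19 FPKM on day 20. Usp18 began lower in exp, crossed between days 5 and 9 and was at its plateau by day 12. The day 16 mean was 9.31 ± 0.824 FPKM in exp and 1.43 ± 0.197 FPKM in ctl (SD, n = 3 each), a log2 difference of 2.08 ± 0.10. Because its FPKM is low, the pseudocount of 1 shrinks this value, and with a pseudocount of 5 it was 1.15. Relative to day 0, the day 16 mean was 6.71 times as high in exp and 0.610 times as high in ctl, the widest spread among the 5 genes.

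**Figure D2:**
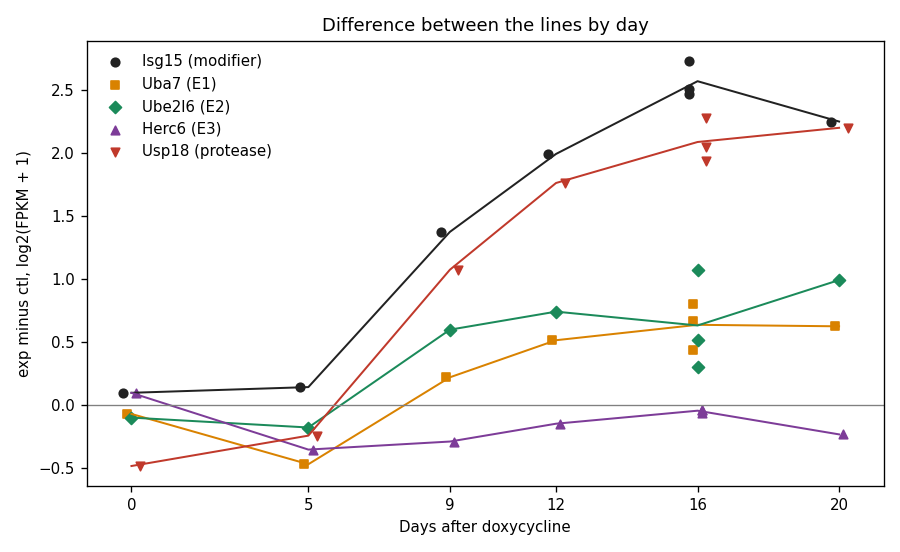
Exp minus ctl on the log2(FPKM + 1) scale for each ISG15 conjugation gene against days after doxycycline, where each point is 1 pair of libraries (3 same-numbered pairs on day 16) and lines join the day means. Isg15 and Usp18 passed 1 on day 9 and lay over 2 on days 16 (replicate 1 of Usp18, at 1.93, excepted) and 20, while on day 20 Uba7 was at 0.62, Ube2l6 at 0.99 and Herc6 at -0.23.

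Counted together, 4 of the 5 genes were higher in exp in all 6 pairs from day 9 on, as were 17.3% of the 12559 genes with a mean of at least 1 FPKM. The day 16 groups did not overlap, with exp higher, for the same 4 genes and for 15.4% of all genes. Both counts use the differences on which the genes were chosen. In the day 16 fit over all genes, limma called 765 of 12533 genes (6.1%), 388 higher (3.1%) and 377 lower (3.01%) in exp, and the median difference over all genes was -0.01. Ranked from the highest log2 difference among those genes, Isg15 was at place 40, Usp18 at 73, Uba7 at 638, Ube2l6 at 644 and Herc6 at 7296. The median of the 5 genes was 0.63.

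Over the whole time course, the exp-minus-ctl difference grew by 3.16 ± 0.33 per 20 days for Usp18 and by 2.93 ± 0.38 for Isg15 (log2 scale, SE, 16 libraries). It grew by 1.09 ± 0.35 for Ube2l6 and by 1.07 ± 0.26 for Uba7, while that of Herc6 was -0.03 ± 0.26. By size, Usp18 and Isg15 held places 3 and 6 of 12559 genes from the highest, Ube2l6 and Uba7 places 225 and 240, and Herc6 place 5787. For all genes the median of this slope difference was -0.06, and limma called 26 genes (0.207%), 23 with a positive value (0.183%) and 3 with a negative one (0.0239%). Within the exp line alone, the slope was 2.31 ± 0.28 for Usp18, 2.13 ± 0.32 for Isg15, 0.82 ± 0.31 for Ube2l6, 0.46 ± 0.17 for Uba7 and -0.06 ± 0.19 for Herc6. In that fit limma called 622 of 12559 genes (4.95%), 171 upward (1.36%) and 451 downward (3.59%). In exp the lowest of the 8 libraries was day 0 for Isg15, Usp18 and Ube2l6, 3 of the 5, as it was for 14.2% of all genes.

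The ctl slope alone was tested. The ctl values are part of the exp-minus-ctl differences known when the genes were chosen, so this test is not independent of that choice. Per 20 days it was -0.85 ± 0.28 for Usp18, -0.80 ± 0.32 for Isg15, -0.62 ± 0.17 for Uba7, -0.28 ± 0.31 for Ube2l6 and -0.03 ± 0.19 for Herc6. None of the 5 passed limma's threshold after Benjamini-Hochberg adjustment over 12559 genes (adjusted p = 0.9995 for each). No gene at all passed it (0.0%), with 203 genes at an unadjusted p under 0.05 and 0 called by limma voom on the recovered reads. The unadjusted limma p was 0.0028 for Uba7, 0.0078 for Usp18, 0.023 for Isg15, 0.38 for Ube2l6 and 0.89 for Herc6. Both lines and all days share 1 spread in this fit. The lack of a call therefore does not show that ctl levels stayed constant. In ctl the highest of the 8 libraries was day 5 for Isg15, Usp18, Uba7 and Ube2l6, which was also so for 22.2% of all genes, and for Herc6 it was replicate 2 of day 16. Day 5 in ctl was 1 library, so its height has no replicate check.

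The proportions of the pathway's transcripts changed in exp. Per 100 FPKM of Isg15, the exp libraries held between 1.85 and 10.3 FPKM of Herc6 (median 3.15), against 9.58 to 21.8 FPKM (median 12.0) in ctl. For Uba7 the exp libraries held 4.46 to 14.1 FPKM (median 5.52), against 12.4 to 18.3 FPKM (median 16.3) in ctl. For Ube2l6 they held 16.2 to 52.4 FPKM (median 29.6), against 56.7 to 91.7 FPKM (median 70.4) in ctl. Usp18 per 100 FPKM of Isg15 went the other way in exp, where it was lowest on day 0 (6.58 FPKM) and highest in a day 16 library (13.4 FPKM). The median was 10.7 FPKM in both lines, with 7.19 to 14.3 FPKM in ctl. The order of levels below Isg15 and Ube2l6 also differed: Usp18 held rank 3 in 7 of 8 exp libraries and rank 5 in that of day 0, while in ctl it held rank 4 in 3 libraries and rank 5 in 5. Uba7 held rank 3 in 6 of 8 ctl libraries. Neighbours in this order did not always differ beyond their spread: on day 16 in ctl, Herc6 at 2.32 ± 0.388 FPKM and Uba7 at 2.19 ± 0.195 FPKM (SD, n = 3) overlapped.

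**Figure D3:**
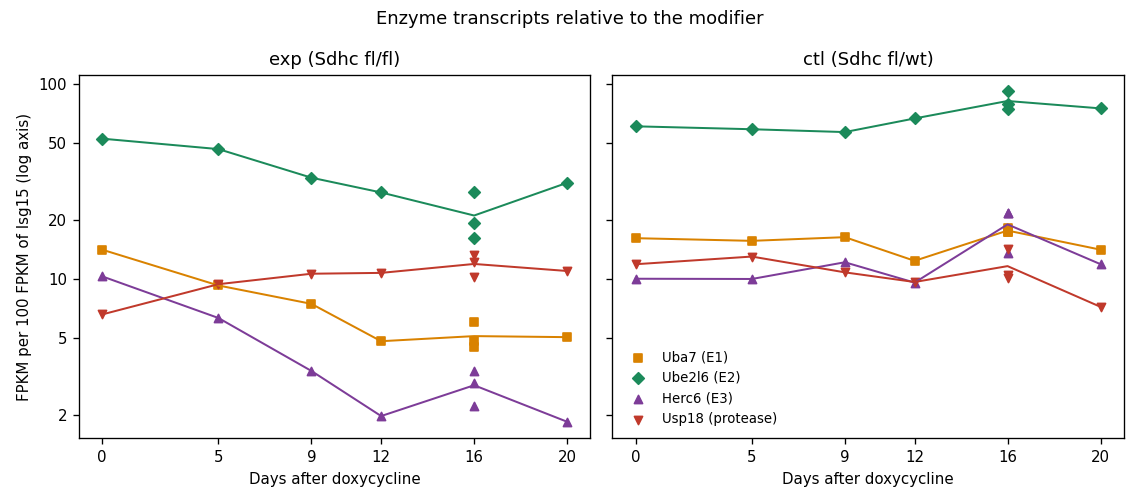
FPKM of each enzyme transcript per 100 FPKM of Isg15 in the same library (log axis) against days after doxycycline, exp at left and ctl at right; points are libraries and lines join the day means. In exp the E1, E2 and E3 were lower relative to Isg15 from day 9 on than on day 0, while Usp18 was lowest on day 0, at 6.58, and at most 13.4, and in ctl Uba7 was never below 12.4 and Ube2l6 never below 56.7.

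Over the 16 libraries the levels on the log2(FPKM + 1) scale correlated at r = 0.974 between Isg15 and Usp18, 0.863 between Isg15 and Uba7, and 0.828 between Isg15 and Ube2l6. The correlation with Herc6 was -0.416 for Isg15 and -0.660 for Ube2l6, but within the lines it was -0.14 in exp and -0.09 in ctl for Isg15, and -0.77 in exp and -0.09 in ctl for Ube2l6. These describe 16 libraries that share days and lines. Within a line, with 8 libraries each, Isg15 and Usp18 correlated at 0.989 in exp and 0.820 in ctl, and Isg15 and Ube2l6 at 0.689 in exp and 0.882 in ctl.

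The genes whose levels ran most like each gene over the 16 libraries, among 12559 genes and leaving out the 5 themselves, differed by member. For Isg15 they were Bst2 (r = 0.989), which encodes tetherin, a membrane protein that holds budding virions, Lgals3bp (0.986), a secreted galectin-binding glycoprotein, and Rtp4 (0.974). For Usp18 they were Parp9 (0.980), Lgals3bp (0.979) and Irf7 (0.978), a transcription factor of interferon genes. For Uba7 they were Dhx58 (0.906), an RNA sensor of the RIG-I family, Irf7 (0.902) and Irf9 (0.901). Bst2 had a day 16 mean of 112.1 FPKM in exp and 26.2 FPKM in ctl.

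For Ube2l6 the most alike genes were Col6a1 (0.956) and Col6a2 (0.955), which encode chains of type VI collagen, and H2-D1 (0.953), a major histocompatibility class I heavy chain. Col6a1 had 356.3, 180.9 and 177.6 FPKM in exp replicates 1, 2 and 3 of day 16, against 172.7, 135.3 and 138.8 FPKM in ctl. In exp both Col6a1 and Ube2l6 were higher in replicate 1 than in replicates 2 and 3, while in ctl only Col6a1 was. For Herc6 the most alike genes were Rictor (0.925), a subunit of the mTORC2 kinase complex, G530011O06Rik (0.895) and Slc22a21 (0.885). Rictor had 8.14, 12.1 and 12.6 FPKM in exp replicates 1, 2 and 3 of day 16, against 10.5, 15.6 and 14.1 FPKM in ctl, so in both lines it was lower in replicate 1.

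The other conjugation systems gave no call. Of 38 genes for other modifiers, their E1 and E2 enzymes and HERC ligases, 37 were tested. In the day 16 fit limma called 0 of them, beside 6.1% of all genes, and limma voom called 0. There were 5 at an unadjusted p under 0.05, beside 2822 of all 12533 genes. The list was not tested against all genes. Their day 16 differences ran between -0.26 (Ube2d1) and 0.26 (Sumo3), with a median of 0.02. The slope-difference fit also called 0 of 37, beside 0.207% of all genes, and limma voom called 0. There were 3 at an unadjusted p under 0.05, beside 1388 of all 12559 genes. Ubb, a ubiquitin gene, had a log2 difference of 0.02 ± 0.12 (limma adjusted p = 0.941). Uba1, the ubiquitin E1, had one of -0.17 ± 0.07 (adjusted p = 0.212) and Ube2d3, a ubiquitin E2, one of 0.18 ± 0.11 (adjusted p = 0.385). Sae1, a subunit of the E1 for SUMO, had 72.3 ± 3.22 FPKM in exp and 71.7 ± 2.19 FPKM in ctl on day 16 (SD, n = 3 each), a log2 difference of 0.01 ± 0.06. Ube2l3, the E2 closest in name to Ube2l6 and an enzyme for ubiquitin, had 83.5 ± 4.40 FPKM in exp and 83.4 ± 2.77 FPKM in ctl, a log2 difference of 0.00 ± 0.07. Herc4 and Herc1, ligases of the HERC family, had log2 differences of -0.13 ± 0.05 and -0.13 ± 0.08, and neither passed the test (limma adjusted p = 0.235 and 0.387).

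Among 11 other enzymes and receptors linked to ISG15, 9 were tested and limma called 0 in either fit, with 1 at an unadjusted p under 0.05 in each and 0 by limma voom. Of all genes, 6.1% were called in the day 16 fit and 0.207% in the slope-difference fit. The most abundant were Usp5 and Usp21, ubiquitin proteases reported to react with ISG15. Usp5 had a day 16 log2 difference of -0.04 ± 0.10 and Usp21 one of -0.13 ± 0.07. Trim25, a ligase for ISG15 and for ubiquitin named here after its values were seen, had 6.97 FPKM in exp and 14.1 FPKM in ctl on day 0. Its day 16 means were 14.6 ± 1.46 FPKM in exp and 12.9 ± 1.14 FPKM in ctl (SD, n = 3 each), and its slope difference of 1.42 ± 0.30 did not pass the test (limma adjusted p = 0.0881). Itgal, a subunit of the LFA-1 receptor for free ISG15, had a highest value of 0.0590 FPKM in any library.

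Of 17 proteins reported as ISG15 substrates, limma called 4 genes higher and 1 lower in exp on day 16. Of all genes tested, 3.1% were called higher and 3.01% lower, and the list's median of 0.02 was near that of all genes. This list was chosen with earlier results of these data known, so its counts and p-values are not independent of that choice. Ifih1, the RNA sensor MDA5, had 5.78, 6.09 and 6.14 FPKM in exp and 1.57, 1.39 and 1.52 FPKM in ctl on day 16, a log2 difference of 1.49 ± 0.08 (limma adjusted p = 0.000516). Ddx58, the RNA sensor RIG-I, differed by 0.77 ± 0.11 (adjusted p = 0.0172) and Eif2ak2, the RNA-dependent kinase PKR, by 0.42 ± 0.06 (adjusted p = 0.0185). Plcg1, a phospholipase named after its values were seen, fell to 18.5 ± 1.17 FPKM in exp, against 24.2 ± 1.69 FPKM in ctl (SD, n = 3 each; adjusted p = 0.0499). The calls of Ddx58 and Eif2ak2 were lost without replicate 2 or 3 of either line, at adjusted p up to 0.0888 and 0.110, while that of Ifih1 held without each of the 6 libraries in turn. That of Plcg1 was lost without 5 of the 6 libraries, at adjusted p up to 0.197, and held without ctl replicate 1.

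Of 9 genes for the type I interferon receptor, interferon beta, ISGF3 and related factors, 8 were tested and limma called 3 higher in exp on day 16 and 0 lower, against the same shares of all genes. The list's median was 0.06. This list too was chosen with earlier results of these data known, so its counts and p-values are not independent of that choice. Irf7 had 11.2, 13.2 and 13.6 FPKM in exp and 3.48, 2.42 and 2.89 FPKM in ctl on day 16, a log2 difference of 1.81 ± 0.13 (limma adjusted p = 0.00138). Irf9, the DNA-binding part of ISGF3, had 31.9, 27.6 and 30.7 FPKM in exp and 15.3, 13.5 and 13.8 FPKM in ctl, a difference of 1.03 ± 0.08 (adjusted p = 0.00178). Stat2, its partner, differed by 0.88 ± 0.12 (adjusted p = 0.0164), and it had 25.4 FPKM in exp and 15.7 FPKM in ctl on day 0 but 16.0 FPKM in exp and 18.7 FPKM in ctl on day 5. The Stat2 call was lost without 5 of the 6 libraries, at adjusted p up to 0.0827. Ifnb1, which encodes interferon beta, had a highest value of 0.0925 FPKM in any library, and the receptor gene Ifnar1 had 22.5 ± 1.84 FPKM in exp and 27.2 ± 2.56 FPKM in ctl (SD, n = 3 each; adjusted p = 0.170).

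**Figure D4:**
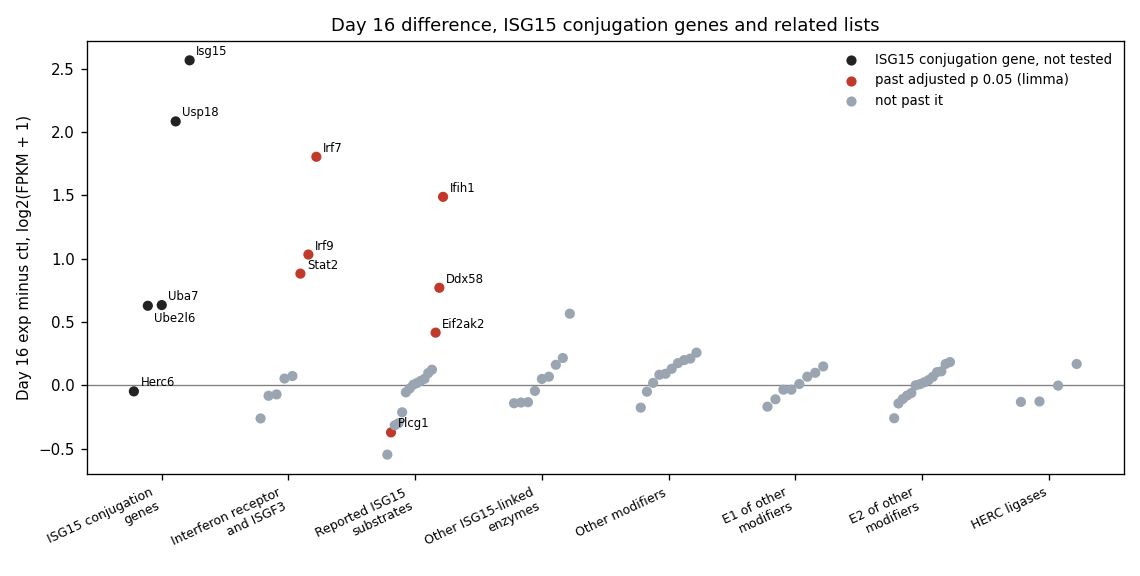
Day 16 exp-minus-ctl difference on the log2(FPKM + 1) scale for the ISG15 conjugation genes (black, not tested) and for 7 related gene lists, where each point is 1 gene, red points passed a limma adjusted p of 0.05 and grey points did not. The red points are Irf7, Irf9 and Stat2 in the receptor list and Ifih1, Ddx58, Eif2ak2 and Plcg1 in the substrate list; genes not reported here are not drawn.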

How the data were processed

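RNA was sequenced from 16 libraries of 2 iMEF lines, grouped by their titled line and day. The values are gene-level FPKM as deposited by the authors, made with Bowtie2 2.2.3 and genome build mm9 per the submitters' processing notes. How reads were counted, on which gene models and with which strand setting, is not given in the sources used here. A symbol was matched to 24416 of the 24485 gene IDs. Whole reads were recovered from the FPKM steps for 18966 genes, all within 0.00067 read of whole numbers (tolerance 0.02).

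The tests were limma's (version 3.58.1, with statmod version 1.5.0, R version 4.3.3), run on log2(FPKM + 1), a scale that understates the change of low genes. Genes needed a mean of 1 FPKM over the libraries in the fit. Fits had a variance trend and robust moderation, two-sided, with Benjamini-Hochberg adjustment over all genes and a threshold of 0.05. The code was also run on simulated counts drawn independently for each library. Those counts lacked the shift between replicates seen in these data, so that run does not show how the fits behave under it. The day 16 fit used 6 libraries without a replicate block. The slope fits used all 16, so libraries of different days share 1 estimate of spread. The labels call the day 16 libraries biological replicates but name no separate lines or animals, so p-values of the day 16 fit measure the spread between these cultures. Days other than 16 had 1 library per line. The errors and p-values of the slope fits therefore also hold departures from a straight line.

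Same-numbered day 16 libraries of the lines deviated together (correlations 0.382, 0.271 and 0.338 over 12559 genes), which meets the rule used for pairing. Exp replicate 3 with ctl replicate 2 (0.397) and exp 2 with ctl 3 (0.206) did so too, so the shared pattern sets replicate 1 against replicates 2 and 3. The gene set and lists were chosen with earlier results of these data known. Named genes were the 5 genes and Sdhc, up to 4 called genes per list and fit with the smallest p, otherwise the 2 of highest mean, and the 3 most alike genes per member. Alternatives changed the pseudocount, filter, scaling, test, replicate block and libraries used. Some genes counted in the lists are not reported here by name.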

Additional observations from a re-analysis of the deposited data

Results flagged for a closer look

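In 3 genes of the related lists, the straight-line slope over days differed between the lines by the test of the difference itself. The lists were chosen with earlier results of these data known, so these tests are not independent of that choice. The exp slope minus the ctl slope, scaled to 20 days, was 1.70 ± 0.26 (SE, log2 scale, 16 libraries) for Ifih1 (limma adjusted p = 0.0301), 1.54 ± 0.25 for Ddx58 (adjusted p = 0.0357) and 1.29 ± 0.21 for Irf9 (adjusted p = 0.0395). A fitted slope is not the observed change. From day 0 to day 20, Ifih1 had 2.15 and then 5.03 FPKM in exp, against 1.97 and then 1.46 FPKM in ctl. Over the alternatives the adjusted p ran from 0.0190 to 0.239 for Ifih1, which passed in 9 of 22, from 0.0238 to 0.249 for Ddx58, which passed in 11 of 23, and from 0.0242 to 0.287 for Irf9, which passed in 10 of 23. With the replicate block the adjusted p of Ifih1 was 0.0530. The calls of all 3 were lost without day 0, 5, 9, 12 or 16, and without replicate 2 or 3 of day 16 in either line. Those of Ifih1 and Irf9 were also lost without ctl replicate 1, so each passed in 1 of 6 omissions of a single day 16 library. The fit enters the day 16 replicates as separate points, and with these averaged in each line no gene was called.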

How the results depend on the processing

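The differences of Isg15, Usp18, Uba7 and Ube2l6 kept their sign on day 16 and over time in every alternative that gave a value. That of Herc6 changed sign in 2 of 15 on day 16 and in 5 of 22 over time. Its ctl slope ran between -0.25 and 0.064 without 1 day or library and turned positive with median-of-ratios scaling (0.0064), quantile normalization (0.047), without ctl replicate 1 of day 16 (0.023), without day 5 (0.064) and without day 20 (0.057). The cause was not tested.

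The day 16 median of the 5 genes was 0.82 with a pseudocount of 0.1, 0.49 with 5, 0.86 with limma voom, 2.08 at a mean FPKM of at least 5, where 3 genes remain, and 0.61 to 0.77 without 1 library. The slope-difference median was 1.38, 0.88, 1.44 and 2.01 under the same changes (2 genes remain at a mean FPKM of at least 5), 1.36 with replicate 1 alone and 0.92 to 1.45 without 1 day or library. The exp slope median was 1.47 at a mean FPKM of at least 5 (2 genes), 1.22 with replicate 1 alone and 0.63 to 1.24 without 1 day or library. The ctl slope median was -0.30 with a pseudocount of 5 and -0.92 to -0.35 without 1 day or library.

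The day 16 calls numbered 493 at a mean FPKM of at least 5, 197 to 1599 without 1 library, and 4326 with replicates 2 and 3 only, an alternative chosen after seeing the data. The slope-difference calls numbered 46 with quantile normalization, 0 with day 16 averaged, 2 with replicate 1 alone, 0 to 27 without 1 day and 2 to 35 without 1 library. The exp slope calls numbered 116 with day 16 averaged and 9 to 1381 without 1 day or library, and the ctl slope calls 1 with replicate 1 alone and 0 to 2 without 1 library.

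With the replicate block the calls numbered 1023 on day 16, 1036 for the exp slope, whose median for the 5 genes was 1.08, and 1 for the ctl slope. Ifih1 did not pass in the slope difference with the block (adjusted p = 0.0530). Depth limits Usp18 and Uba7 most: Usp18 had 49 reads in exp on day 0.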
